A study of Rattus norvegicus with 16 samples.

Results

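Collagens are extracellular matrix proteins built from chains that wind into a triple helix. The chain genes were taken here by symbol: a probe set counted as a member when its only gene symbol in the platform annotation had the form of a collagen chain name such as Col1a1. This gave 41 collagen genes of 14217 genes with a symbol, measured by 58 of 31042 probe sets. For each gene the brightest probe set by its mean over all arrays was used, and 14 of the genes had more than 1 probe set. By class the 41 genes were 11 fibrillar collagens, 5 chains of the basement membrane collagen IV, 5 of the beaded filament collagen VI, 9 fibril-associated collagens, 3 short-chain network collagens, collagen VII, 4 transmembrane collagens, 2 multiplexins and Col26a1.

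The study measured total RNA of rat adrenal tissue on 16 Affymetrix arrays, all from rats of a mixed Sprague–Dawley white eye/Wistar–Kyoto background kept under specific pathogen-free conditions. The hyperplasia group held 8 medullary hyperplasias of the adrenal gland from rats with a mutation of p27Kip1, an inhibitor of cyclin-dependent kinases, at 2 months of age. The young wild-type group held 2 pools of adrenal medulla, of 2 and 3 wild-type animals, also at 2 months. The pheochromocytoma group held 4 tumours of mutant rats, 3 at 8 months labelled female and 1 (replicate 4) at 9 months labelled male. The old wild-type group held 2 pools of 2 wild-type animals each: pool 1 at 10 months labelled female, and pool 2 at 12 and 17 months labelled male. Because pooling averages animals, the spread between pools understates that between rats. The labels do not say whether the mutation was homozygous.

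As background, type I and type III collagen are the main fibrils of connective tissue and are made mostly by fibroblasts and related mesenchymal cells. Type IV collagen forms the network of basement membranes, under endothelium and around cell nests and vessels, and type VI forms a beaded microfibril near it. The adrenal medulla is a tissue of chromaffin cells rich in capillaries, with a thin stroma. In whole tissue, fewer matrix-producing cells and less RNA per cell cannot be told apart.

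All values are log2 expression levels as deposited, and 1 unit is a doubling. Differences between groups came from a linear model (limma) over all 16 arrays with labelled sex as a covariate, so a difference can depart slightly from the gap between group means. They are given ± standard error, with Benjamini-Hochberg adjusted p-values over 31042 probe sets, and a difference passed the test at an adjusted p under 0.05. Brightness also depends on the probes, so levels were compared between groups for 1 gene and not between genes. The level of Xist, an RNA made from the inactivated X chromosome, went against the labelled sex on 6 of the 10 arrays from rats of 2 months: both young pools and hyperplasia replicates 1, 2, 5 and 6. With the Xist level in place of labelled sex, all 31 collagen differences that passed the test in the 5 comparisons kept their call. Among the 8 hyperplasias, split after the Xist levels were seen into 4 with and 4 without Xist, 5 of 41 collagen genes passed (8.55% of all genes): 3 were higher with Xist (4.26% of all genes) and 2 lower (4.29%). Chromaffin cell markers, of the tissue the labels name, had high mean levels on all arrays. They were 12.96 to 13.12 in the young pools, 13.03 to 13.13 in hyperplasia, 12.34 to 12.79 in the old pools and 12.80 to 13.21 in the tumours. The mean of 12 adrenal cortex markers was 10.96 to 11.18 in the young pools, 9.88 to 10.66 in hyperplasia, 11.33 to 11.68 in the old pools and 9.77 at its lowest in the tumours, each of which lay below both old pools. Cortex RNA was thus found on all arrays. Its levels were lower in hyperplasia than in the young pools, and in the tumours than in the old pools. Of the 41 collagen genes, 32 were brighter on all arrays than the first quartile of probe set levels (4.71 to 4.93). Col2a1, Col9a1, Col19a1, Col20a1, Col10a1 and Col17a1 were dimmer than it on all arrays, and the other three, Col6a6, Col22a1 and Col25a1, crossed it.

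The first comparison set the hyperplasias against wild-type medulla of the same age. Of the 41 collagen genes 3 (7.32%) passed the test, close to the share of all genes that passed in either direction (8.5%). All 3 were lower in hyperplasia, and 3.33% of all genes passed as lower. They were Col6a6, a chain of collagen VI, Col8a2, a short-chain collagen of sheet-like networks, and Col25a1, a transmembrane collagen of neurons. Of the 41, 9 had groups that did not overlap (22.0%), against 23.6% of all genes. Of these 2 were higher (4.88%, against 12.7% of all genes) and 7 lower (17.1%, against 10.9%). The median difference over the 41 was -0.10, against -0.01 over all genes. An unadjusted p under 0.05 was found for 12 of the 41, against 3633 of all 14217 genes.

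Col6a6 stood at 6.07 and 6.52 in the young pools and at 4.91, 5.14 and 5.32 (lowest, median and highest of 8) in hyperplasia. All 8 hyperplasias lay below both pools, close to the level of dim probe sets. The difference was -1.15 ± 0.14, 2.22-fold lower (limma, adjusted p = 0.000297). Col8a2 was 7.77 and 8.12 in the pools and 6.69, 6.99 and 7.45 in hyperplasia. The 8 hyperplasias again lay below both pools, and the difference was -0.94 ± 0.18 (adjusted p = 0.00636). Col25a1 was 5.33 and 4.93 in the pools and 3.88, 4.05 and 4.65 in hyperplasia, a difference of -0.95 ± 0.23 (adjusted p = 0.0207) with no overlap, though all 8 hyperplasias were dimmer than the first quartile. The Col6a6 call held without either young pool. Without young pool 2, Col8a2 did not pass (-0.68, adjusted p = 0.200), and Col25a1 did not pass without young pool 1 (-0.74, adjusted p = 0.235), without young pool 2 (-1.16, adjusted p = 0.0955) or without the 4 hyperplasias whose Xist went against the label (adjusted p = 0.0536). With the replicate number as a block in the model no collagen gene passed, Col6a6 included. With the mean of the cortex markers added to the model Col6a6 alone passed. Its difference lay between -1.22 and -1.08 over the settings tried other than leaving out an array. The cortex markers were lower in hyperplasia (12 of 12 below 0, 2 passing), and their part in these differences was not tested beyond that covariate.

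The promoter windows of the members that carried the largest differences are printed from RefSeq (GRCr8) as 250 bases before to 50 bases after the annotated start, 5′ to 3′ on the gene's strand. Capitals mark 3 promoter motifs, searched on both strands, so a reverse complement is in capitals too. They are the box named CCAAT after its letters, the TATA box with the letters TATAAA, and the GC box with the letters GGGCGG. No matches overlap each other in the windows printed. Over 33469 windows of this length in the table, 37.5% held CCAAT, 14.2% TATAAA and 33.1% GGGCGG. A match describes letters and is not evidence of a site. A window was found for 32 of the 41 collagen genes. The Col6a6 window lies at chr8:115352112-115352411 on the minus strand.
Col6a6: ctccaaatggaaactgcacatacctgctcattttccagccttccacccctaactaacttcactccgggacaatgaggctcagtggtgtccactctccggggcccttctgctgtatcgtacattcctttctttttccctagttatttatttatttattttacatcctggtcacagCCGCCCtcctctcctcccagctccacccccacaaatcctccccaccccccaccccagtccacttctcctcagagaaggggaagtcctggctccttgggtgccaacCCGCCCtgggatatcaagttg
It holds GGGCGG on the opposite strand at 2 places and neither CCAAT nor TATAAA.

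None of the fibrillar collagens of connective tissue passed the test in hyperplasia against young medulla. Col1a1, the major chain of type I collagen, was 8.46 and 8.71 in the young pools and 8.09, 8.68 and 8.99 in hyperplasia. The ranges overlapped, and the difference was 0.00 ± 0.24 with a 95% interval of -0.51 to 0.50. Col1a2, the other chain of type I collagen, differed by -0.25 (95% interval -0.63 to 0.14). Col3a1, type III collagen, was 10.76 and 10.97 in the pools and 10.44, 10.72 and 10.91 in hyperplasia, a difference of -0.16 (-0.63 to 0.31). The intervals leave room for changes of up to about the size of those limits, so equality was not shown. Over the 11 fibrillar genes 6 differences lay above 0 and 5 below, and the median was 0.01. None of 5 collagen IV genes passed (median -0.10), nor any of 9 fibril-associated genes (median -0.05). Of 5 collagen VI genes 4 lay below 0 with a median of -0.34, and Col6a6 was the member that passed.

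Col24a1 and Col15a1 lay above both young pools in all 8 hyperplasias without passing the test. Col27a1, Col4a6, Col6a1 and Col14a1 lay below both pools in all 8, also without passing (-0.21, -0.30, -0.45 and -0.59). Col24a1, a fibrillar collagen described in developing bone and cornea, was 5.04 and 4.82 in the pools and 5.47, 5.93 and 6.92 in hyperplasia, a difference of 1.08 ± 0.37 (adjusted p = 0.0951). Col15a1, a multiplexin of basement membrane zones, differed by 0.57 ± 0.19 (adjusted p = 0.0770) and passed without hyperplasia replicate 7, without hyperplasia replicate 8 or with the Xist level as covariate.

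**Figure D1:**
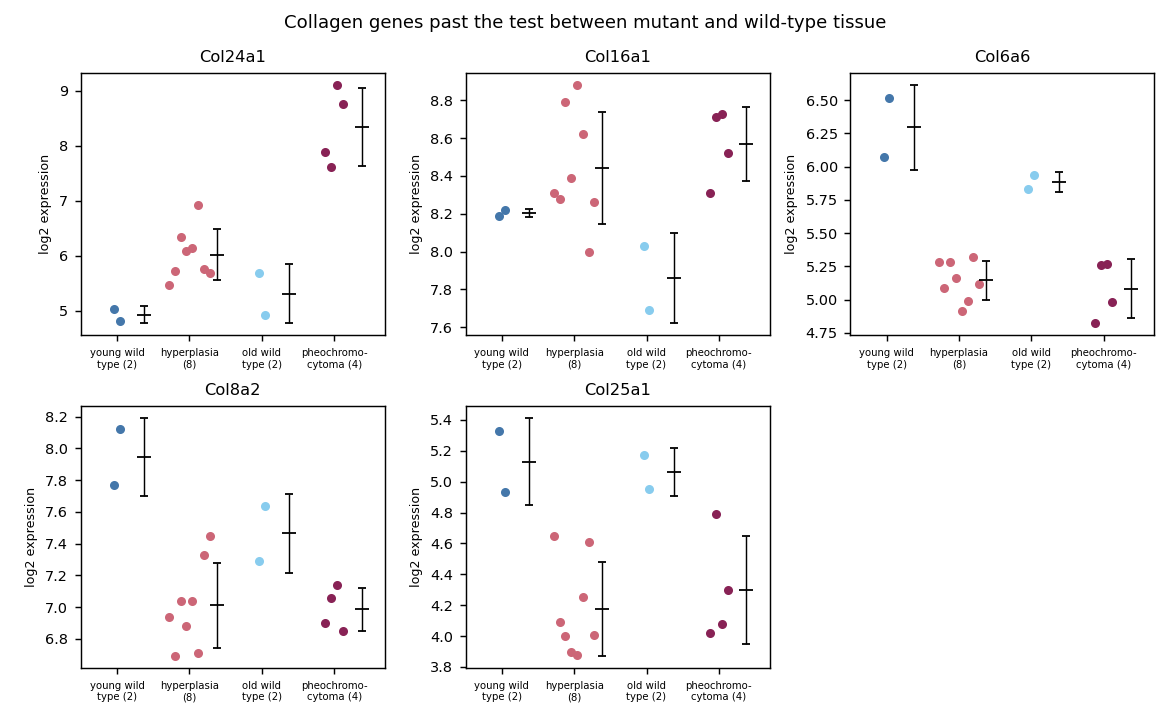
Log2 expression (y axis) of the 5 collagen genes that passed the test in hyperplasia against young wild type or in pheochromocytoma against old wild type, by group (x axis, number of arrays in brackets). Points are arrays, and the bar beside them is the mean ± SD; Col24a1 is highest in the 4 tumours (7.61 to 9.10), and Col6a6 is lower in all mutant arrays than in all 4 wild-type pools.

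The second comparison set the tumours against old wild-type medulla. Again 3 of 41 collagen genes passed (7.32%), against 15.3% of all genes: Col24a1 and Col16a1 were higher (8.85% of all genes were) and Col6a6 was lower (6.49%). Groups did not overlap for 13 of the 41 (31.7%), against 42.3% of all genes. Of these 5 were higher, against 22.7% of all genes, and 8 lower, against 19.6%. The median difference over the 41 was 0.06, against 0.00 over all genes.

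Col24a1 had the largest difference among the 41 genes. It was 5.69 and 4.93 in the old pools and 7.89, 7.61, 9.10 and 8.75 in the tumours. Every tumour was at least as high as 7.61 and both pools were below 6, so the groups were far apart. The difference was 3.07 ± 0.41, 8.42-fold higher in the tumours (limma, adjusted p = 0.000604). It passed without each array in turn, with values from 2.58 to 3.64. With the cortex mean in the model it was 2.19 (adjusted p = 0.126) and did not pass, and the cortex markers were lower in the tumours (12 of 12 below 0, 6 passing). RefSeq's table holds 3 windows for Col24a1, and the first lies at chr2:236872384-236872683 on the plus strand.
Col24a1: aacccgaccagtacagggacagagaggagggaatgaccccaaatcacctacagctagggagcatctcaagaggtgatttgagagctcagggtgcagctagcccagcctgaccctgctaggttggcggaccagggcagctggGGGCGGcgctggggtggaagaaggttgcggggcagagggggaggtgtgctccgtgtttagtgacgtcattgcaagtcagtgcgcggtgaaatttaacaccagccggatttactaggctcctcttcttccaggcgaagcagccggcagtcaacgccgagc
This window holds GGGCGG once, 109 bases before the annotated start, and neither CCAAT nor TATAAA.

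Col16a1, a fibril-associated collagen of fibrillin-rich and dermal matrix, was 8.03 and 7.69 in the old pools and 8.31, 8.71, 8.73 and 8.52 in the tumours. The tumours lay above both pools, by 0.70 ± 0.21 (adjusted p = 0.0452). This call was the least steady of those in the first 2 comparisons: it passed in 5 of the 16 fits that left out an array. It missed without old pool 1 (0.87, adjusted p = 0.0683), without old pool 2 (0.54, adjusted p = 0.372), and without tumour replicates 2, 3 or 4 (0.65 to 0.70). It also missed without young pool 1 or 2 and without hyperplasia replicate 1, 2, 4 or 6 (each 0.69). These arrays enter only through the shared spread and the sex covariate. With the cortex mean in the model its difference was 0.29 (adjusted p = 0.733).

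Col6a6 was 5.83 and 5.94 in the old pools and 4.82, 5.26, 5.27 and 4.98 in the tumours. The 4 tumours lay below both pools, by -0.84 ± 0.15 (adjusted p = 0.00341). It was thus lower in the mutant tissue at both ages, in 8 of 8 hyperplasias and 4 of 4 tumours. Without old pool 2 the tumour difference did not pass (-0.71, adjusted p = 0.0895), nor with the cortex mean in the model (-0.90, adjusted p = 0.145) or with only the arrays of the tumours and old pools in the fit (-0.82, adjusted p = 0.0601).

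Several members came near the threshold in the tumours. Col25a1 was 5.17 and 4.95 in the old pools and 4.02, 4.79, 4.08 and 4.30 in the tumours, without overlap, with a difference of -0.76 ± 0.25 (adjusted p = 0.0603). Col8a2 lay below both pools in all 4 tumours, with a difference of -0.46 ± 0.20 (adjusted p = 0.141). Col5a2 and Col5a3, chains of type V collagen, which helps to start type I fibrils, lay above both pools in all 4 tumours, by 0.71 ± 0.23 (adjusted p = 0.0536) and 0.68 ± 0.24 (adjusted p = 0.0735). Col13a1, a transmembrane collagen of cell junctions, lay below both pools by -0.75 ± 0.28 (adjusted p = 0.0905). Of the 11 fibrillar genes 9 differences lay above 0 (median 0.18) and 1 passed, and the 4 transmembrane genes all lay below 0 (median -0.56) with none passing.

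Col1a1 was 6.41 and 6.64 in the old pools and 6.26, 7.27, 6.96 and 7.39 in the tumours. Tumour replicate 1 lay below both pools and the others above, and the difference was 0.50 (95% interval -0.06 to 1.06). Without that tumour it was 0.71 and passed (adjusted p = 0.0446), and the count of collagen genes past the test rose from 3 to 6. Col1a2 differed by 0.22 (-0.21 to 0.64) and Col3a1 by 0.18 (-0.34 to 0.70), with overlapping groups.

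Whether the difference from wild type was larger in tumours than in hyperplasia was tested as an interaction. None of the 41 collagen genes passed, and 1 of 14217 genes did (0.00703%). At an unadjusted p under 0.05 there were 2 of 41, Col24a1 and Col5a2, against 1465 of 14217 genes. For Col24a1 the effect was larger in the tumours by 1.99 ± 0.56 (adjusted p = 0.232), and for Col5a2 by 0.66 ± 0.31 (adjusted p = 0.459). For Col6a6 the effects differed by 0.32 (95% interval -0.12 to 0.75). A different response in the 2 lesions was thus not shown for any collagen gene.

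**Figure D2:**
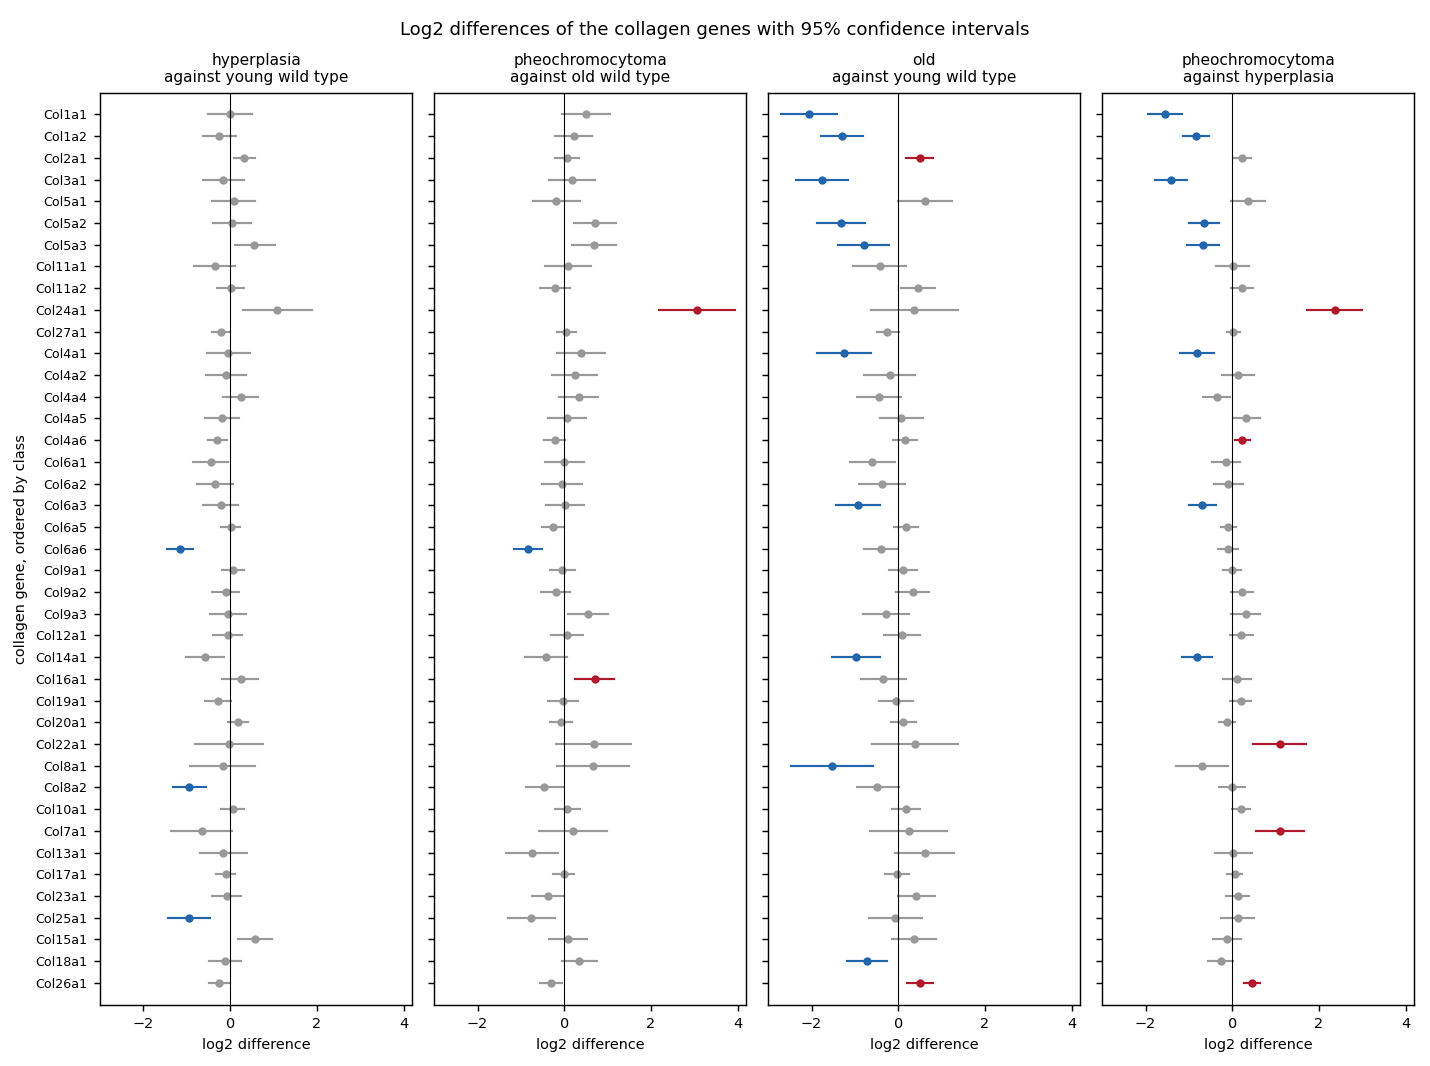
Log2 differences (x axis) of the 41 collagen genes (y axis, ordered by class) in 4 comparisons, with 95% confidence intervals. Red and blue mark genes that passed the test as higher and lower, and grey those that did not; 3 genes are coloured in each of the first 2 panels, 12 in the third and 13 in the fourth.

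More collagen genes passed between young and older arrays, as more genes of all kinds did. In old against young wild type 12 of 41 collagen genes passed (29.3%), against 21.1% of all genes: 10 were lower (24.4%, against 12.7% of all genes) and 2 higher (4.88%, against 8.45%). In pheochromocytoma against hyperplasia 13 passed (31.7%), against 33.8% of all genes: 8 were lower (19.5%, against 19.2% of all genes) and 5 higher (12.2%, against 14.6%). Groups did not overlap for 31 collagen genes between the wild-type ages (59.8% of all genes), 12 higher (26% of all genes) and 19 lower (33.8%). Between the lesions they did not overlap for 8 (22.3% of all genes), 4 higher (9.28%) and 4 lower (13%). These 2 comparisons share no arrays, but both come from the same fit, with a shared spread per gene and a shared sex covariate. All 8 collagen genes that were lower in the tumours than in hyperplasia were also lower in the old than in the young pools (100% of the 8 and 80.0% of the 10), and Col26a1 was higher in both. Over all genes the lower genes of the tumour comparison were shared for 49.8%, and those of the wild-type comparison for 75.7%. Of the higher collagen genes 1 was shared (20% of the 5 and 50% of the 2), against 36.8% and 63.6% over all genes.

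Col1a1 and Col3a1 had the largest decreases in both comparisons by their brightest probe sets. Col1a1 stood at 8.46 and 8.71 in the young pools and 6.41 and 6.64 in the old pools, a difference of -2.06 ± 0.30, 4.17-fold lower (adjusted p = 0.000219). It was 8.09 to 8.99 in hyperplasia (n = 8) and 6.26 to 7.39 in the tumours (n = 4), a difference of -1.55 ± 0.19 (adjusted p = 1.2e-05). No older array reached any young array. Col1a2 was 10.06 and 9.87 in the young pools and 8.70 and 8.61 in the old ones, a difference of -1.30 ± 0.23 (adjusted p = 0.000947). In the tumours it was 8.32, 8.80, 8.85 and 9.29, against 9.46 to 10.21 in hyperplasia, a difference of -0.84 ± 0.14 (adjusted p = 0.000277). Col3a1 was 10.76 and 10.97 in the young and 9.41 and 8.79 in the old pools, a difference of -1.76 ± 0.28 (adjusted p = 0.00042). In the tumours it was 8.61 to 9.67, below all 8 hyperplasias at 10.44 to 10.91, by -1.42 ± 0.17 (adjusted p = 1.38e-05). These 3 genes passed in both comparisons without each array in turn.

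The Col1a2 window lies at chr4:33518307-33518606 on the plus strand, and Col1a1 and Col3a1 have no printed window.
Col1a2: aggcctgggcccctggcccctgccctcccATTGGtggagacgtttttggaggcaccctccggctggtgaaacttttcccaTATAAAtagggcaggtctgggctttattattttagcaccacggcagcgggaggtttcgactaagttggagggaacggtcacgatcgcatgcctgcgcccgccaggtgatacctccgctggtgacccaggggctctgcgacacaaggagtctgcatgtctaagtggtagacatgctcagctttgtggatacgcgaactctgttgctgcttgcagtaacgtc
It holds CCAAT on the opposite strand, 221 bases before the annotated start, and TATAAA 170 bases before it.

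**Figure D3:**
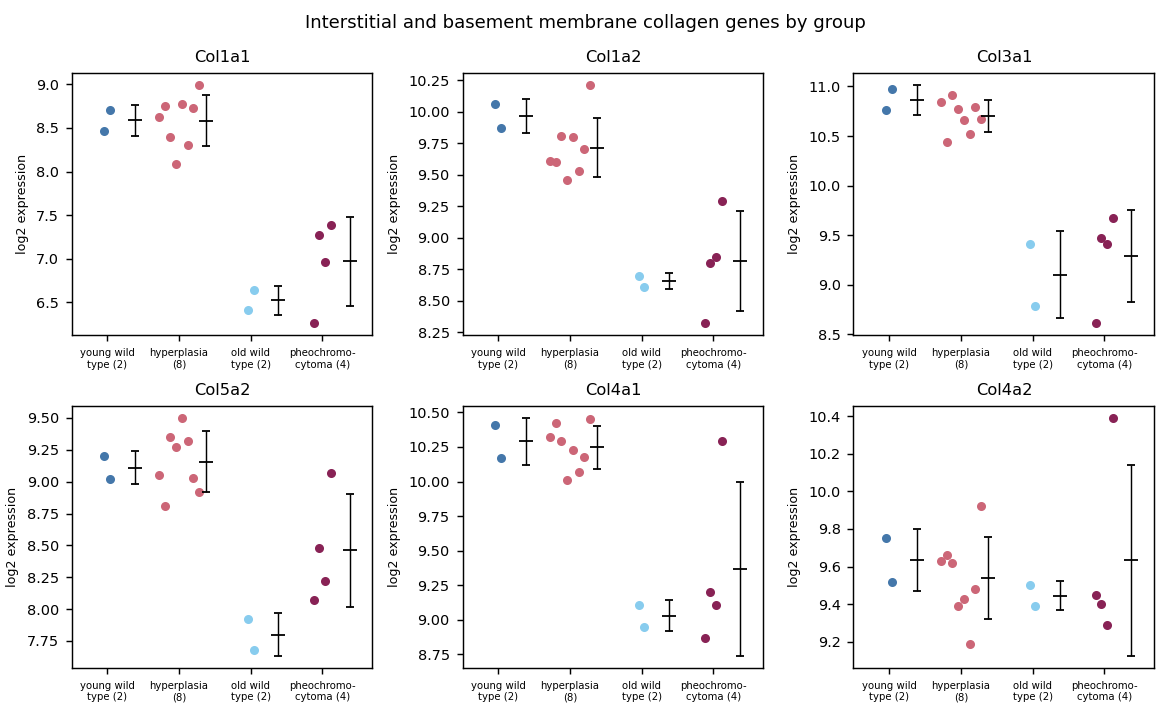
Log2 expression (y axis) of type I, III and V collagen chains and of the collagen IV chains Col4a1 and Col4a2, by group (x axis, number of arrays in brackets), as points for arrays with the mean ± SD beside them. Col1a1, Col1a2 and Col3a1 are lower on all 6 older arrays than on all 10 young arrays, while the Col4a2 groups lie close together apart from 1 tumour at 10.39.

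Type V chains differed in direction. Col5a2 was 9.20 and 9.02 in the young pools and 7.92 and 7.68 in the old ones, lower by -1.31 ± 0.26 (adjusted p = 0.00231), and lower in tumours than in hyperplasia by -0.65 ± 0.16 (adjusted p = 0.00514). Its other probe set was lower in the old pools (-1.02 ± 0.33, adjusted p = 0.0384) but did not pass between the lesions (-0.14 ± 0.21, adjusted p = 0.643). Col5a3 was lower by -0.79 ± 0.27 in the old pools (adjusted p = 0.0490) and by -0.67 ± 0.17 in the tumours (adjusted p = 0.00589). Its wild-type call passed in 4 of the 16 fits that left out an array and failed without any of the 4 wild-type pools, at -0.98 to -0.60. Col5a1 lay above 0 in both, at 0.62 and 0.36 without passing. Its dimmer probe set passed in both, at 1.12 ± 0.28 (adjusted p = 0.00875) and 1.23 ± 0.17 (adjusted p = 5.11e-05).

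Outside the fibrillar class, Col6a3, a collagen VI chain, was lower in the old pools by -0.93 ± 0.24 (adjusted p = 0.0115) and in the tumours by -0.69 ± 0.15 (adjusted p = 0.00177). Col6a1 and Col6a2, with which it assembles, differed by -0.60 and -0.38 in the old pools and by -0.14 and -0.09 in the tumours, none passing. Col14a1, which binds the surface of type I fibrils, was lower by -0.98 ± 0.26 (adjusted p = 0.0147) and by -0.81 ± 0.16 (adjusted p = 0.00115). Its dimmer probe set did not pass in either, at -0.12 ± 0.23 (adjusted p = 0.740) and -0.04 ± 0.15 (adjusted p = 0.842). Col8a1 (-1.53 ± 0.44, adjusted p = 0.0218) and Col18a1 (-0.73 ± 0.22, adjusted p = 0.0249), whose fragment is endostatin, passed as lower in the old pools and differed by -0.70 and -0.26 in the tumours without passing.

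Some of these wild-type calls rested on a pool. Without old pool 1, Col6a3, Col14a1, Col8a1, Col5a3 and Col2a1 did not pass, and 7 genes did. Without old pool 2, Col4a1, Col14a1, Col8a1, Col18a1, Col5a3, Col2a1 and Col26a1 did not pass, and 6 genes did. Without young pool 1 the count was 7, and without young pool 2 it was 5: Col1a1, Col1a2, Col3a1, Col5a2 and Col4a1. Col1a1, Col1a2, Col3a1 and Col5a2 passed without each of the pools in turn.

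Of the 5 genes higher in tumours than in hyperplasia, Col24a1 had the largest difference. Col24a1 was 7.61 to 9.10 in the tumours and 5.47 to 6.92 in hyperplasia, without overlap, a difference of 2.36 ± 0.30 (adjusted p = 1.72e-05). It differed by 0.37 ± 0.47 between the wild-type ages (adjusted p = 0.610). Col7a1, which forms the anchoring fibrils under epithelia, was 10.27, 9.97, 10.68 and 9.54 in the tumours and 8.01, 8.98 and 9.51 in hyperplasia, higher by 1.10 ± 0.26 (adjusted p = 0.00375). The wild-type pools lay at 9.73 and 9.47 when young and 10.36 and 9.33 when old, within or near the tumour range.

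Col22a1, a fibril-associated collagen of tissue junctions, was 4.99, 5.16, 5.71 and 7.48 in the tumours and 4.59 to 5.04 in hyperplasia. The highest value belongs to tumour replicate 4, the 9-month tumour labelled male. The difference was 1.09 ± 0.29 (adjusted p = 0.00800), and without that tumour 0.46, which still passed. Without the 4 hyperplasias whose Xist went against the label it did not (0.97, adjusted p = 0.0946). Col26a1, a small collagen first found in testis and ovary, was higher by 0.45 ± 0.09 (adjusted p = 0.000842) and higher in the old pools by 0.51 ± 0.14 (adjusted p = 0.0167). Col4a6 was higher in the tumours than in hyperplasia by 0.23 ± 0.08 (adjusted p = 0.0328). It did not pass without tumour replicate 2, tumour replicate 4 or hyperplasia replicate 3 (lowest value 0.19). Against old wild type it differed by -0.22 ± 0.11 (adjusted p = 0.219), all 4 tumours lying below both pools. Col2a1, cartilage collagen, passed as higher in the old pools (0.50 ± 0.15, adjusted p = 0.0262) but it was among the 6 dim genes on all arrays, and the mean of its probe sets differed by 0.01.

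**Figure D4:**
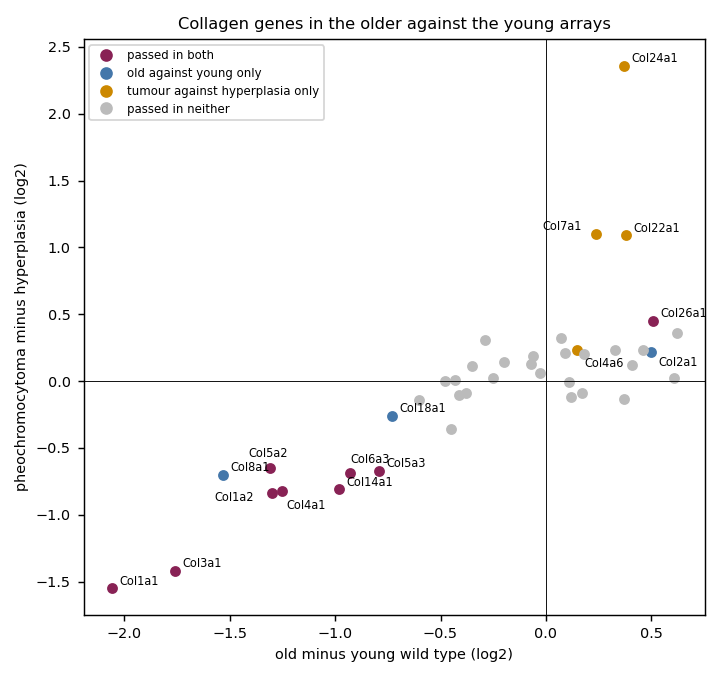
Log2 difference of each collagen gene between old and young wild-type pools (x axis) and between pheochromocytoma and hyperplasia (y axis). The 2 axes share no arrays but come from the same fit. Points are genes, coloured by the comparisons in which they passed, and 8 genes passed as lower in both while Col24a1 is high on the y axis (2.36) and near 0 on the x axis (0.37).

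Collagen IV is assembled mainly from 2 chains of Col4a1 with 1 of Col4a2, whose genes start back to back. In the RefSeq table their annotated starts are 77 bases apart on opposite strands, and their promoter windows share 176 bases, at chr16:84885347-84885646 on the plus strand for Col4a1 and chr16:84885471-84885770 on the minus strand for Col4a2. Both are printed because these neighbours, read outward from the same stretch of DNA, gave different calls.
Col4a1: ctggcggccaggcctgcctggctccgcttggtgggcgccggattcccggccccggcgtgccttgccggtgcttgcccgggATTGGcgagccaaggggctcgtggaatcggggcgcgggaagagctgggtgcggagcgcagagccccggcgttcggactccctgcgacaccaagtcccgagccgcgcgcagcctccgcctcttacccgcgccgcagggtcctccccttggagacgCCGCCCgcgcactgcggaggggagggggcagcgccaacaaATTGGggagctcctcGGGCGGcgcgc
Col4a2: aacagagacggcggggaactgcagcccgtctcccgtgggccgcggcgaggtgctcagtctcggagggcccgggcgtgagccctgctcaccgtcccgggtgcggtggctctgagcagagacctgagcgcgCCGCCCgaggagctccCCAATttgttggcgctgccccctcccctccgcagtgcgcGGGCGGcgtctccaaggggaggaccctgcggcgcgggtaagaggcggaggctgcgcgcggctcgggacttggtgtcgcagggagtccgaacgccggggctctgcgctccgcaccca
The Col4a1 window holds CCAAT on the opposite strand at 2 places and GGGCGG at 2, and the Col4a2 window holds CCAAT 105 bases before its start and GGGCGG at 2 places. The GC content was 75.0% and 73.7%, against a median of 51.7% over all windows.

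Col4a1 was 10.41 and 10.17 in the young pools and 9.11 and 8.95 in the old ones, lower by -1.25 ± 0.29 (adjusted p = 0.00684). In the tumours it was 8.87, 9.20, 9.11 and 10.29, against 10.01 to 10.45 in hyperplasia, lower by -0.82 ± 0.18 (adjusted p = 0.00249). Tumour replicate 4 lay within the hyperplasia range and the other three below it. Without old pool 2 the wild-type difference did not pass (adjusted p = 0.0858). Col4a2 was 9.75 and 9.52 in the young, 9.50 and 9.39 in the old pools, 9.19 to 9.92 in hyperplasia and 9.45, 9.40, 9.29 and 10.39 in the tumours. Its differences were -0.20 (95% interval -0.78 to 0.39) between the pools and 0.14 (-0.23 to 0.51) between the lesions, and neither passed. The difference between the 2 genes' changes was not tested, and each was read with its own probes. Against the young pools, Col4a1 and Col4a2 differed by -0.04 and -0.10 in hyperplasia. Against the old pools they differed by 0.39 and 0.24 in the tumours, and none of these differences passed.

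Genes with more than 1 probe set mostly gave the same direction for the lower levels on the older arrays. Col1a2, Col4a1, Col6a3 and Col18a1 passed as lower in the old pools with both of their probe sets, at -1.79 and -1.30, -1.54 and -1.25, -0.93 and -0.90, and -0.73 and -0.68. The dimmer Col1a1 probe set gave -0.77 ± 0.31 (adjusted p = 0.0854) in the old pools and -0.50 ± 0.19 (adjusted p = 0.0536) in the tumours, a smaller difference than the brighter one and short of the test. With the mean of all probe sets the tumour difference of Col1a1 was -1.02. The dimmer Col1a2 probe set was higher in tumours than in old wild type by 0.55 ± 0.17 (adjusted p = 0.0416), where the brighter one did not pass. For Col12a1, which decorates fibrils, the brightest of 3 probe sets did not pass in any comparison, while another was lower in hyperplasia by -0.62 ± 0.18 (adjusted p = 0.0486), in the old pools by -0.86 ± 0.22 and in tumours against hyperplasia by -0.51 ± 0.14. Dimmer probe sets of Col15a1 (-0.78 ± 0.23) and Col18a1 (-0.40 ± 0.11) passed as lower in the tumours than in hyperplasia, where the brightest did not. A Col11a1 probe set also passed there (-0.34 ± 0.12), but at levels of 2.73 to 3.56 it was far dimmer than the first quartile on all arrays, and another gave 0.05.

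Signals other than collagen moved with the same split. The 3′ minus 5′ difference of the hexokinase control, which rises as RNA or labelling becomes less complete, was 1.07 to 1.18 in the young pools, 1.21 to 1.63 in hyperplasia, 2.29 to 2.92 in the old pools and 2.16 to 3.30 in the tumours, with no overlap between young and older arrays. The mean of 14 fibroblast and pericyte markers without collagens was 8.77 to 8.78, 8.60 to 8.89, 8.30 to 8.40 and 8.37 to 8.76 in the same order. Among them 12 of 14 lay below 0 in old against young wild type, with Tagln (-1.38 ± 0.28), Dpt (-0.90 ± 0.29) and Thy1 (-0.80 ± 0.18) passing. In tumours against hyperplasia 12 of 14 also lay below 0, with Tagln, Cspg4, Kcnj8 and Des passing. Of 11 macrophage and leukocyte markers 5 were lower in the old than in the young pools, and 7 in the tumours than in hyperplasia. Of all genes 12.7% passed as lower between the wild-type ages and 19.2% between the lesions. With the fibroblast marker mean as a covariate 1 collagen gene passed between the wild-type ages (Col1a1, -1.87) and 6 between the lesions. With the hexokinase difference as a covariate 1 passed between the wild-type ages (Col1a2, -1.68) and 0 between the lesions, where Col1a1 was -1.44 and Col3a1 -1.62 with wider errors, while Col24a1 was 1.14, Col7a1 0.05 and Col22a1 -0.08. Of 10 chromaffin markers 10 lay below 0 in old against young wild type, 2 passing, and 11 of 12 cortex markers lay above 0, none passing. Between the lesions 6 of 10 chromaffin markers lay below 0, 2 passing, and 7 of 12 cortex markers above 0, none passing. Age, RNA completeness, the mix of tissue and the set of arrays cannot be told apart in these 2 comparisons.

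**Figure D5:**
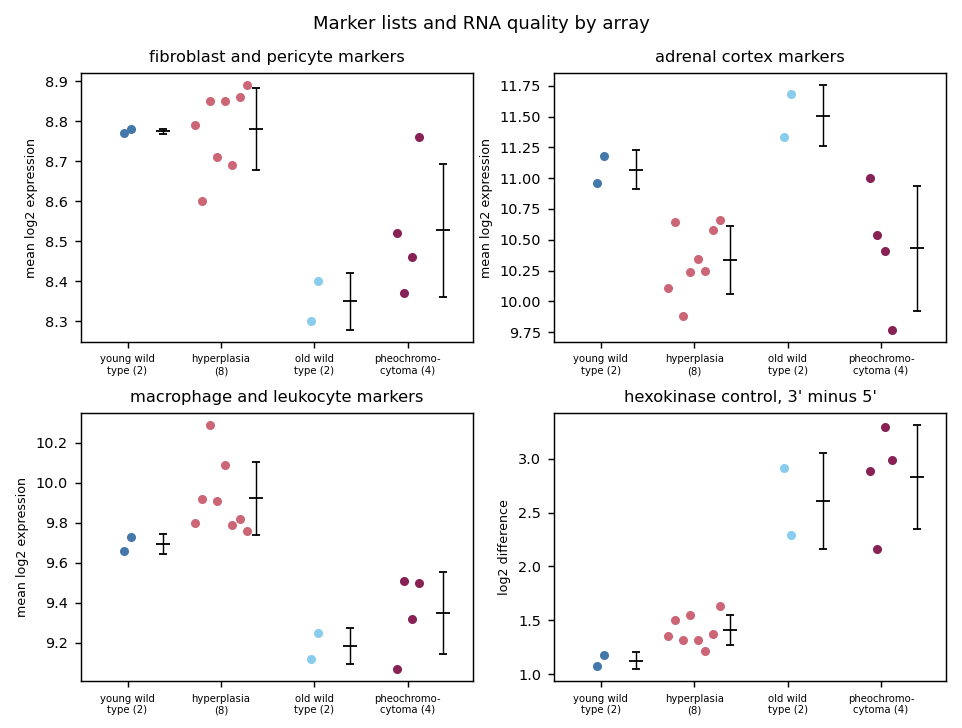
Mean log2 expression (y axis) of 3 marker lists, and the 3′ minus 5′ log2 difference of the hexokinase control, on each array by group (x axis, number of arrays in brackets), with the mean ± SD beside the points. The hexokinase difference is at most 1.63 on the young and at least 2.16 on the older arrays, and the cortex marker mean is higher in wild-type pools than in hyperplasia.

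Other genes of collagen biology were followed through lists. In the comparisons with wild type 8.5% of all genes passed in hyperplasia and 15.3% in the tumours. Among 19 genes of collagen folding and modification, Colgalt1, which adds galactose to hydroxylysine, was higher in hyperplasia (0.34 ± 0.09, adjusted p = 0.0419), and P3h3, a member of the prolyl 3-hydroxylase family, was higher in the tumours than in old wild type (0.64 ± 0.16, adjusted p = 0.0169). In the old pools 5 of this list were lower and 2 higher, where 21.1% of all genes passed, with Ppib, the cyclophilin of the prolyl 3-hydroxylation complex, at -0.64 ± 0.11 and P3h1 at -0.79 ± 0.14. In tumours against hyperplasia, where 33.8% of all genes passed, 4 were lower, among them Serpinh1, the collagen chaperone HSP47 (-0.61 ± 0.16), and 2 higher, with Plod2, a lysyl hydroxylase, at 0.80 ± 0.13. Of 6 genes of propeptide cleavage and cross-linking, Loxl1, a lysyl oxidase, was lower in hyperplasia than in young wild type (-0.79 ± 0.15, adjusted p = 0.00549), all 6 differences lying below 0, and none passed in tumours against old wild type.

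Of 15 genes of proteins that share the basement membrane with collagen IV, 13 did not pass in hyperplasia and 11 did not in the tumours. The shares of all genes that passed were 8.5% and 15.3%. The 2 that passed in hyperplasia were lower: Lama2, a laminin chain (-0.83 ± 0.14, adjusted p = 0.00257), and Lamc3 (-0.68 ± 0.12, adjusted p = 0.00414). In the tumours Lama2 (-0.56 ± 0.15, adjusted p = 0.0262) and Nid1, which links laminin to collagen IV (-1.04 ± 0.29, adjusted p = 0.0309), were lower. Pxdn, the peroxidase that cross-links collagen IV (1.36 ± 0.22, adjusted p = 0.00202), and Agrn (0.73 ± 0.16, adjusted p = 0.00811) were higher there. Of 12 small proteoglycans and fibril-associated proteins Prelp was lower in hyperplasia (-0.55 ± 0.12, adjusted p = 0.0114) and none passed in the tumours. Of 5 collagen receptors none passed in hyperplasia, and Itga11, an integrin chain that binds fibrillar collagen (0.87 ± 0.26, adjusted p = 0.0390), and Ddr1, a collagen-binding kinase (0.45 ± 0.11, adjusted p = 0.0160), were higher in the tumours.

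Of 16 genes of matrix degradation, 2 were higher in hyperplasia than in the young pools and in the tumours than in the old pools. Of all genes 8.5% passed in the first of these comparisons and 15.3% in the second. Mmp11, a matrix metalloproteinase, differed by 1.30 ± 0.29 in hyperplasia (adjusted p = 0.0149) and 1.09 ± 0.32 in the tumours (adjusted p = 0.0375). Mmp15, a membrane-bound one, differed by 0.72 ± 0.15 (adjusted p = 0.00912) and 1.05 ± 0.16 (adjusted p = 0.00153). The inhibitors Timp3 (-0.67 ± 0.15, adjusted p = 0.00935) and Timp1 (-0.47 ± 0.13, adjusted p = 0.0240) were lower in the tumours. Of 11 genes of TGF-beta signalling, a pathway that induces collagen genes in fibroblasts, 1 was higher and 1 lower in hyperplasia. In the tumours 3 were higher and 2 lower. Tgfb2 was higher in hyperplasia (0.95 ± 0.17, adjusted p = 0.00353) and in the tumours (0.80 ± 0.18, adjusted p = 0.0120). Ltbp1, which holds latent TGF-beta in the matrix, was lower in hyperplasia (-0.95 ± 0.22, adjusted p = 0.0179). In the tumours Smad3, a signal mediator (-1.03 ± 0.20, adjusted p = 0.00522), and Tgfbr3 (-0.79 ± 0.16, adjusted p = 0.00644) were lower and Tgfb1 (0.55 ± 0.14, adjusted p = 0.0218) was higher. None of these partner genes passed the interaction test, and Ccn2, a TGF-beta target, had the largest such difference among them (1.45 ± 0.34, adjusted p = 0.182).

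Markers of stromal cells were given beside the mutant comparisons, in which 8.5% of all genes passed in hyperplasia and 15.3% in the tumours. Of 14 fibroblast and pericyte markers Pdgfra was lower in hyperplasia (-0.80 ± 0.20, adjusted p = 0.0278), and in the tumours Rgs5, a pericyte gene (2.08 ± 0.44, adjusted p = 0.00786), and Thy1 (0.82 ± 0.16, adjusted p = 0.0049) were higher. Over the 14, 9 differences lay above 0 and 5 below in hyperplasia, and 7 above and 7 below in the tumours. Of 11 endothelial markers none passed in hyperplasia and Tek was lower in the tumours (-0.64 ± 0.19, adjusted p = 0.0412). Over the 11, 2 differences lay above 0 and 9 below in hyperplasia, and 6 above and 5 below in the tumours. With the mean of the fibroblast and pericyte markers in the model, Col6a6, Col8a2 and Col25a1 still passed in hyperplasia, and Col24a1 (3.10) and Col6a6 (-0.90) in the tumours. Col16a1 did not (0.73, adjusted p = 0.151). The part of the endothelial markers was not tested.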

How the data were processed

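RNA of 16 rat adrenal samples was measured on Affymetrix arrays. The deposited values are log2 expression levels, made with RMA per the submitters' processing notes (background correction, quantile normalization, probe summary; version not given). The sources used here do not say which arrays were normalized together. Values ranged from 2.41 to 14.54. The number of arrays limits the precision.

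The 57 control probe sets were left out, and symbols came from the platform annotation (436 probe sets with several and 9780 with none were not named). Members were chosen by symbol, and the members, class lists, partner lists and marker lists were chosen with earlier results of these data known. A two-sided moderated linear model with 4 groups plus labelled sex (limma 3.58.1, R 4.3.3; 11 residual degrees of freedom) gave the differences, which were adjusted by Benjamini-Hochberg over 31042 probe sets. Genes were named where they passed the test or belonged to Col1a1, Col1a2, Col3a1, Col4a1, Col4a2 and Col24a1. Each partner list contributed at most 4 members that passed in each comparison with wild type, those changed most. Members near the threshold (Col15a1, Col5a2, Col5a3, Col13a1), and partner genes of the comparisons across age, were named after their values were seen. So were Col27a1, Col4a6, Col6a1 and Col14a1 in hyperplasia against young wild type. The labels call the samples of 3 groups biological replicates, and p-values measure the spread between samples. The script was tested on simulated data: it recovered 79% of log2 changes of 1 in hyperplasia against young wild type, 65% in pheochromocytoma against old wild type and 61% in old against young wild type, with 31042 probe sets each. Alternatives covered covariates, normalization, filters, probe sets, array subsets and each array left out.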

Additional observations from a re-analysis of the deposited data

Results flagged for a closer look

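Within the groups of 8 and 4 arrays, each collagen gene's highest and lowest array was compared with its neighbour by Dixon's ratio. Of 82 gene and group combinations 5 stood apart, and chance gives about 1 in 20. Col1a2 was 10.21 in hyperplasia replicate 8, and the next hyperplasia was 9.81. Col27a1 was 5.40 in tumour replicate 3 against 5.21 for the next. Tumour replicate 4, the 9-month tumour labelled male, was highest in the other three: Col4a2 at 10.39 against 9.45, Col4a5, a chain of other collagen IV trimers, at 9.27 against 8.64, and Col8a1 at 7.61 against 6.49. This array also had the highest endothelial marker mean of the tumours, 8.97 against at most 8.43 in the other three, the highest fibroblast and pericyte mean (8.76 against at most 8.52) and the lowest cortex mean (9.77 against at least 10.41). The part of these cells in its collagen levels was not tested. It is the only tumour labelled male, so sex and age cannot be told apart from the animal here. Without it 15 collagen genes passed in pheochromocytoma against hyperplasia, against 13 with it.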

How the results depend on the processing

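The counts of collagen genes past the test were 3, 3, 0, 13 and 12 for hyperplasia (against young wild type), tumours (against old wild type), the interaction of these, tumours against hyperplasia, and old against young pools. Leaving out each array in turn gave 1 to 4, 1 to 6, 0 to 0, 12 to 15 and 5 to 12. The 1 came without young pool 2 and without old pool 2, the 6 without tumour replicate 1 (5 without hyperplasia replicate 7), and the 5 without young pool 2. With the replicate number as a block the hyperplasia count was 0, and with the cortex markers as covariate it was 1. The tumour count was 1 with only the arrays compared and 0 with the cortex covariate. Pheochromocytoma against hyperplasia gave 6 with the fibroblast covariate and 0 with the hexokinase covariate, which was added after seeing the data. Old against young gave 7 with only the arrays compared, 1 with the fibroblast and 1 with the hexokinase covariate, and Col22a1 turned to -0.08 between the lesions with the hexokinase covariate. Without the 4 hyperplasias whose Xist went against the label, and without a sex covariate, the counts were 2, 3, 0, 12 and 10. Replicate numbers are not known to pair samples: deviations of same-numbered arrays correlated at -0.18 to 0.21. The block's other counts were 2, 0, 12 and 8. Of single-gene values under all settings 1122 kept direction and call, 134 lost and 6 gained the call, and 21 moved with no call. Of the 31 differences that passed, 4 lost their call under quantile normalization (Col16a1 in the tumours, Col4a6 between the lesions, Col18a1 and Col2a1 between the wild-type ages) and 2 under median centring (Col16a1 and, between the wild-type ages, Col5a3), with no change of direction. The tumour count was 2 under quantile normalization. These scalings shifted the median over all genes to between -0.06 and 0.02.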

Other observations

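The 8 hyperplasias fell into 4 arrays with Xist (replicates 3, 4, 5 and 6) and 4 without, a split made after the Xist levels were seen and fitted with limma on these 8 arrays. Of 41 collagen genes 5 passed (12.2%), close to the 8.55% of all genes. Higher with Xist were Col24a1 at 6.08 to 6.92 against 5.47 to 5.77 (0.71 ± 0.17, adjusted p = 0.0257), Col16a1 at 8.39 to 8.88 against 8.00 to 8.31 (0.46 ± 0.12, adjusted p = 0.0405) and Col5a2 at 9.27 to 9.50 against 8.81 to 9.05 (0.41 ± 0.09, adjusted p = 0.0231). Lower with Xist were Col8a1 at 6.74 to 7.53 against 7.72 to 8.11 (-0.78 ± 0.16, adjusted p = 0.0144) and Col5a1 at 7.62 to 7.96 against 8.10 to 8.28 (-0.42 ± 0.10, adjusted p = 0.0255). Each of these 5 genes had the 4 arrays of either kind apart. Col1a1, Col1a2, Col3a1, Col6a6 and Col8a2 did not pass. The mean of the fibroblast and pericyte markers was 8.69 to 8.85 with and 8.60 to 8.89 without Xist. The mean of the cortex markers was 9.88 to 10.34 with and 10.11 to 10.66 without. The young pools hold 1 array of each kind and the 3 tumours with Xist are those labelled female, so the split could not be tested in another group. The part of sex, litter or dissection in it was not tested.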
